A study of Mus musculus with 3 samples.

Results

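The genes described here are 9 genes that mark the contractile programme of vascular smooth muscle: Myh11, Acta2, Tagln, Lmod1, Cnn1, Myocd, Mylk, Rcan2 and Olfr78. They were taken by gene symbol, and all 9 were found among the 25154 genes listed in at least 1 of the 3 tables. Their UMIs (unique molecular identifiers, each standing for 1 captured transcript) were counted in nuclei of brown adipose tissue (BAT), in classes of nuclei set by markers that include none of the 9. Nuclei came from adult WT C57Bl6 mice. Interscapular BAT was digested and the layer that floats was kept, with its lipid-filled brown adipocytes (BAs) and fragments of vessel. Dye-positive nuclei were sorted from it and captured on the BD Rhapsody system. There was 1 library of each of 3 conditions: BAT without treatment (untreated, pooled from several mice), BAT labelled as sham-operated (sham), and BAT whose left intercostal nerves had been cut, collected on the third day after and pooled from several mice (denervated). The study's legend for the denervation experiment also lists tamoxifen administrations, and none is named for the untreated sample. Any effect of tamoxifen and that of denervation cannot be told apart in these libraries. The side and time of the sham sample are not given in the sources used here. In their headers the untreated table is named as run nC and the denervated table as run nKO, names that the labels do not explain, and groups and genotype are given as labelled. With 1 library per condition no test between conditions was possible, and every interval below is an exact 95% interval that covers counting error only. UMIs are molecules, but PCR and capture differences between libraries are not in these intervals.

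Smooth muscle cells wrap arteries, arterioles and veins and set vessel diameter by contracting. Contraction begins when calcium activates myosin light chain kinase, the product of Mylk, which switches on smooth muscle myosin, whose heavy chain is encoded by Myh11. The myosin pulls on filaments of smooth muscle α-actin (Acta2), which transgelin (Tagln) and calponin (Cnn1) bind and leiomodin (Lmod1) helps to build. Myocardin (Myocd) is the coactivator that works with serum response factor on a DNA element called the CArG box to switch on contractile genes. Rcan2 encodes a regulator of the calcium-dependent phosphatase calcineurin, and Olfr78 an olfactory receptor that is also found in vascular smooth muscle. Pericytes (PCs) are the mural cells of capillaries and are known to hold less of the contractile proteins than smooth muscle.

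All 9 are protein-coding genes in the GENCODE annotation of GRCm38. Myh11 lies on the minus strand at chr16:14194535-14291372 and Mylk on the plus strand of the same chromosome at chr16:34745210-35002420. Tagln (chr9:45929619-45936058, minus strand) and Cnn1 (chr9:22099216-22109630, plus strand) share a chromosome as well. Acta2 is at chr19:34241090-34255590 (minus strand), Lmod1 at chr1:135324807-135368065 (plus), Myocd at chr11:65176561-65269989 (minus), Rcan2 at chr17:43801351-44039516 (plus) and Olfr78 at chr7:102738511-102759471 (minus). Tagln overlaps Pcsk7 and Gm48529 on the other strand, and whether reads were counted by strand is not given, so Tagln reads and reads of these genes cannot be told apart with certainty. Pcsk7 had 51, 99 and 34 UMIs in the mural nuclei of the untreated, sham and denervated libraries, and Gm48529 had 2, 2 and 1. Olfr78 overlaps Olfr560 on the same strand.

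Promoter windows are shown because the members were found in the same class of nuclei, as the values below show, and because the CArG box is the element through which myocardin and serum response factor act. RefSeq promoter windows of 300 bases (GRCm38.p6) were on hand for 5 of the 9 members: Acta2, Lmod1, Cnn1, Mylk and Rcan2. Myh11, Tagln, Myocd and Olfr78 had no entry. The Acta2 window, on the minus strand at chr19:34255324-34255623, and the Lmod1 window, on the plus strand at chr1:135324563-135324862, each held 2 stretches that differ from the CArG box in 1 letter, printed here in capitals:
Acta2: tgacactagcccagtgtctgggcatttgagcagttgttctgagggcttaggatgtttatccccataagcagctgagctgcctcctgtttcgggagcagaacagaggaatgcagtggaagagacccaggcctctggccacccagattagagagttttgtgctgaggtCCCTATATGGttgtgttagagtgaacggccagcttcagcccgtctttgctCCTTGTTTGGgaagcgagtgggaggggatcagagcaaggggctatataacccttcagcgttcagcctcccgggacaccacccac
Lmod1: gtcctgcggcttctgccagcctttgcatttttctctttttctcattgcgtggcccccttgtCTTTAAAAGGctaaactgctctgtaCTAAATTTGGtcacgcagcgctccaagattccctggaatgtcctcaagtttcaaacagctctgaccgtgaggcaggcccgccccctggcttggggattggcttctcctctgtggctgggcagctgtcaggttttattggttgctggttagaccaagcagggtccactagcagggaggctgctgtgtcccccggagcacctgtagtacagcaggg
The stretches begin 84 and 34 bases before the start site on which the Acta2 window is set, and 189 and 164 bases before that of the Lmod1 window. The Acta2 gene given above begins at 34255590 on the minus strand, upstream of both stretches, so they lie inside its annotated span. No member window held an exact CArG box, the first of 3 Rcan2 windows held 1 stretch with 1 letter different, and the Cnn1 and Mylk windows held none. Among all 32851 windows of the same table, 1.63% held an exact match, 21.1% at least 1 match with at most 1 letter different, and 3.70% held 2 or more. A match is a description of these letters on either strand, and whether any of them is bound was not examined here.

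In the order untreated, sham and denervated, the tables held 13707, 15368 and 15822 barcodes and 14971579, 14725864 and 9420030 UMIs in total, of which 10500, 11809 and 9595 barcodes were kept as nuclei. The median kept nucleus had 989.5, 749 and 691 UMIs. At most 278 barcodes were shared by any pair of libraries, and 0 of them had equal totals. Mural nuclei here are the nuclei of clusters named from PC or smooth muscle markers: 635 untreated, 1822 sham and 802 denervated nuclei, or 6.05%, 15.4% and 8.36% of nuclei, with median depths of 765, 726 and 392.5 UMIs. They were compared with 4992, 5332 and 2565 endothelial-like nuclei (median 661, 510 and 394 UMIs), 4750, 4401 and 5849 adipocyte-like nuclei (1802, 1333 and 882 UMIs), and 28, 50 and 78 fibroblast-like nuclei. PC markers summed to 12903, 12623 and 7289 CPM (counts per 1000000 UMIs of the class) in the mural nuclei and to 254, 298 and 299 CPM in the endothelial-like nuclei. Clusters were named from these same markers, so the difference follows from the naming and is a description only. The untreated and denervated libraries each gave 1 mural cluster, which was PC-like. In the sham library 373 of the mural nuclei formed a separate smooth muscle-like cluster.

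Myh11, the smooth muscle myosin heavy chain, was a mural gene in all 3 libraries. It had 283 CPM in untreated mural nuclei (interval 239.5 to 331), 454 CPM in sham (419.8 to 490.5) and 199.7 CPM in denervated (158 to 249.5). The sham interval lay above both others, whose intervals overlapped. In the sham PC-like cluster alone Myh11 had 112 CPM (93.1 to 133), below both. The untreated and denervated clusters still held whatever smooth muscle nuclei they had, so these are not like sets of nuclei. In the main groups of a second clustering, described below, Myh11 was at 98.3 CPM (72.0 to 131) in untreated and 163 CPM (139 to 189.7) in sham. Other members are given by sham cluster further on. Endothelial-like nuclei had 0.851, 6.35 and 7.47 CPM, and adipocyte-like nuclei 2.78, 3.31 and 2.59 CPM. The log2 ratio of mural over endothelial-like nuclei was 8.37 (6.80 to 10.67) in untreated, 6.16 (5.54 to 6.86) in sham and 4.74 (3.78 to 5.86) in denervated BAT. A Myh11 UMI was found in 11.5%, 17.0% and 5.86% of mural nuclei and in 0.0601%, 0.338% and 0.390% of endothelial-like nuclei, whose median depths are given above.

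Acta2, the α-actin of the contractile filament, followed at 203 CPM (167 to 245) in untreated mural nuclei, 237 CPM (212 to 263) in sham and 153 CPM (116 to 197) in denervated. The untreated interval overlapped both others, and the sham and denervated intervals did not overlap. Endothelial-like nuclei had 6, 7 and 8 Acta2 UMIs in all, or 1.70, 2.12 and 5.98 CPM. The log2 ratio of mural over endothelial-like nuclei was 6.90 (5.73 to 8.38), 6.80 (5.75 to 8.13) and 4.68 (3.61 to 5.95). Denervated fibroblast-like nuclei held 6 Acta2 UMIs, and the ratio of denervated mural over fibroblast-like nuclei, 0.35 (-0.86 to 1.85) on the log2 scale, could not be told from 0 at this depth.

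Among the actin-binding members, Tagln and Lmod1 were higher in mural nuclei and Cnn1 was not measurable. Tagln had 113 CPM (86.2 to 145) in untreated, 133 CPM (114 to 153) in sham and 62.2 CPM (39.9 to 92.6) in denervated mural nuclei, and its endothelial-like level of 4.54, 8.77 and 6.73 CPM gave log2 ratios of 4.63, 3.92 and 3.21. Lmod1, the actin nucleator, had 62.8 CPM (43.5 to 87.7), 105 CPM (89.1 to 124) and 57.0 CPM (35.7 to 86.4), with log2 ratios over endothelial-like nuclei of 7.79, 6.12 and 3.67 that rest on 1, 5 and 6 endothelial-like UMIs. Cnn1, which encodes calponin, had 0 UMIs in untreated mural nuclei, where 3 counts would be 5.54 CPM, 3 UMIs in sham and 2 in denervated mural nuclei, against 4, 1 and 3 UMIs in adipocyte-like nuclei. No ratio is given for Cnn1.

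Mylk, the kinase that starts contraction, was the member most widely found. Cnn1 aside, it was the least confined to mural nuclei when set against endothelial-like and adipocyte-like nuclei. This did not hold over fibroblast-like nuclei, where its log2 ratio was 3.20, 5.32 and 3.79 on few fibroblast-like UMIs. It had 1108 CPM (1021 to 1200.3) in untreated mural nuclei, 1032 CPM (980.4 to 1087) in sham and 829.7 CPM (741 to 926) in denervated, with a UMI in 49.6%, 47.0% and 25.7% of them. Over the whole endothelial-like class it had 117, 117 and 129 CPM, and over the adipocyte-like class 73.6, 35.6 and 85.5 CPM, where each other member was below 10 CPM. Its log2 ratio of mural over endothelial-like nuclei was 3.25 (3.06 to 3.43), 3.15 (2.98 to 3.31) and 2.69 (2.42 to 2.97). A Mylk UMI was found in 6.91%, 6.02% and 5.61% of endothelial-like nuclei. The table holds 1 value for the gene, so its transcripts were not told apart.

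Myocd, the coactivator, had 59.1 CPM (40.4 to 83.4) in untreated, 129 CPM (111 to 149) in sham and 57.0 CPM (35.7 to 86.4) in denervated mural nuclei. The sham interval stood above both others, which nearly coincided. In the sham PC-like cluster alone Myocd had 24.2 CPM (16.1 to 35.0), below both, which still held whatever smooth muscle nuclei they had. In the main groups of the second clustering Myocd was at 25.6 CPM in untreated and 34.5 CPM in sham, with intervals that overlapped. The log2 ratio over endothelial-like nuclei was 6.70 (4.73 to 9.81), 5.04 (4.23 to 5.97) and 3.25 (2.03 to 4.63), with 2, 13 and 8 endothelial-like UMIs. Over adipocyte-like nuclei it was 4.41, 6.29 and 3.91.

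Rcan2 and Olfr78, which are not part of the contractile filament, were also higher in mural than in endothelial-like and adipocyte-like nuclei. Rcan2 had 66.5 CPM (46.6 to 92.0), 156 CPM (136 to 178) and 59.6 CPM (37.8 to 89.5) in untreated, sham and denervated mural nuclei, with log2 ratios over endothelial-like nuclei of 4.07, 4.84 and 3.51. In Schwann-like nuclei, of which there were 26, 131 and 46, Rcan2 had 1, 5 and 1 UMIs, or 61.0 CPM (19.8 to 142) in sham. Olfr78 had 57.2 CPM (38.9 to 81.3), 126 CPM (109 to 146) and 28.5 CPM (14.2 to 51.0). It had few UMIs elsewhere, with 1, 3 and 1 UMIs in endothelial-like and 1, 2 and 1 in adipocyte-like nuclei. Its log2 ratio over adipocyte-like nuclei was 8.95, 8.58 and 7.37, the highest of the 8 members with a ratio in each library.

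**Figure D1:**
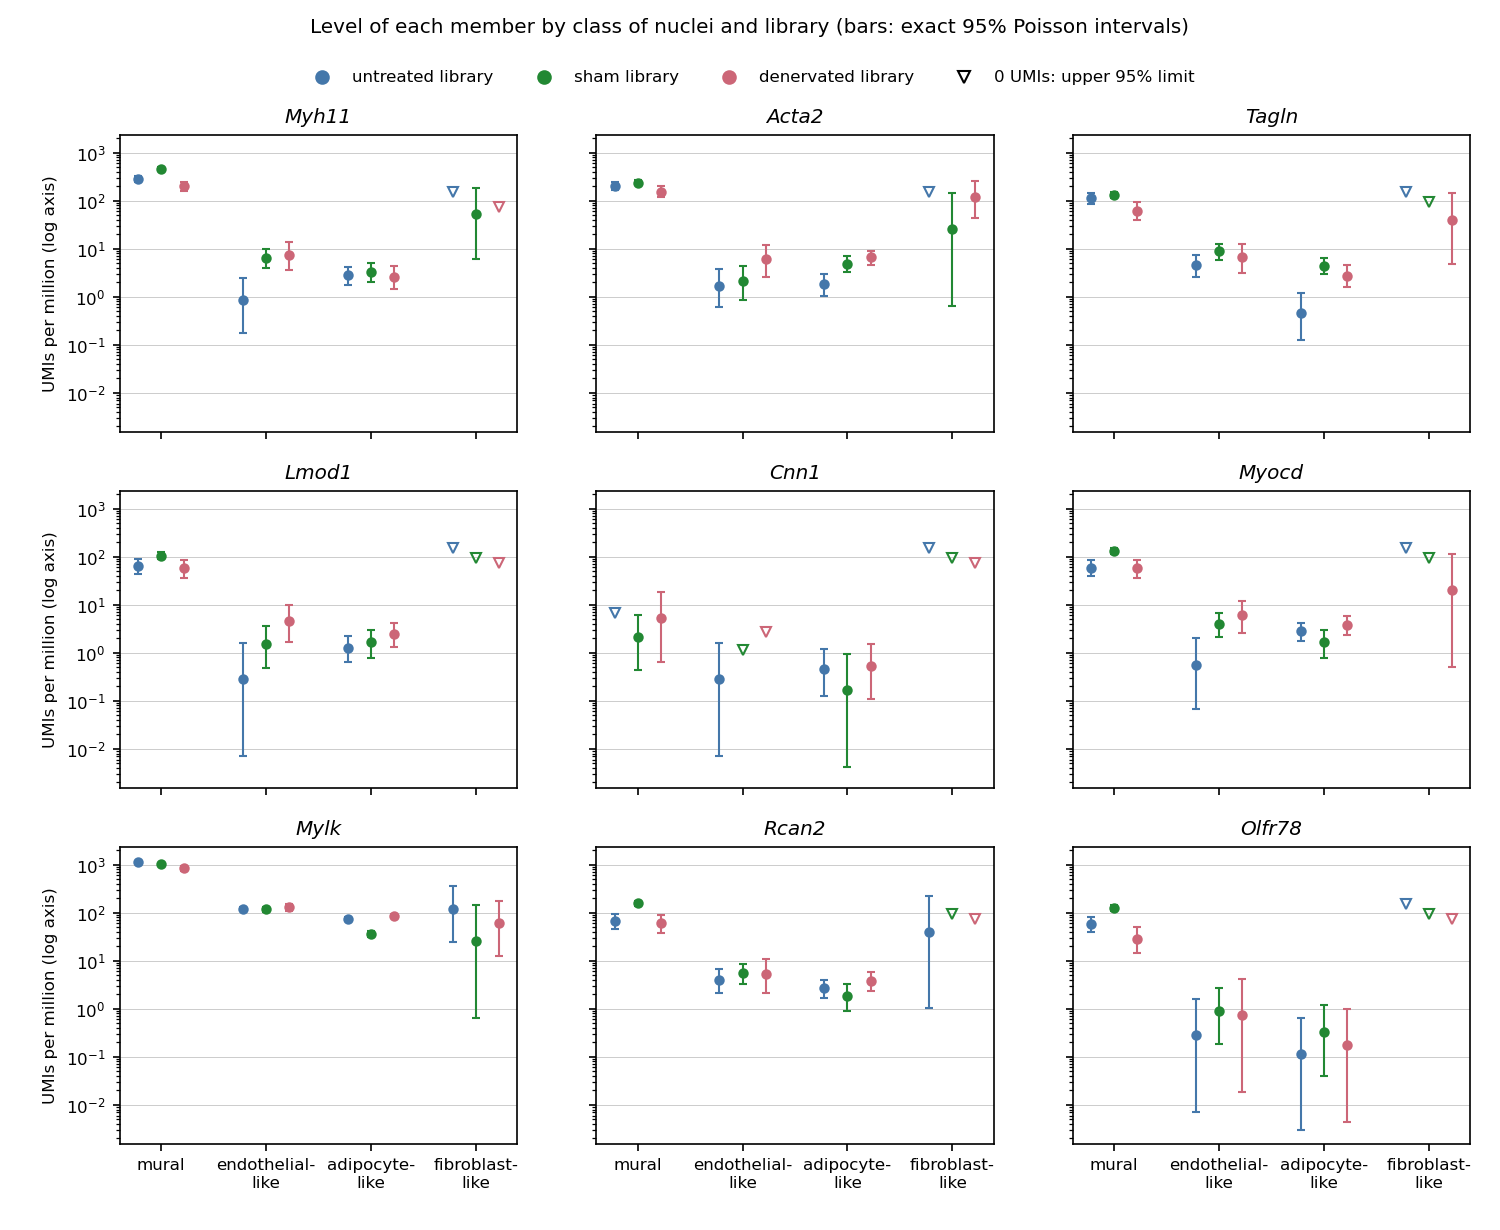
Each panel is 1 gene, with classes of nuclei on the x axis and CPM on a log y axis; points are libraries (1 per condition), bars exact 95% Poisson intervals, and open triangles the upper limit where no UMI was found. Mural points of every member but Cnn1 stand above the endothelial-like and adipocyte-like points, and Mylk is the member with 35.6 CPM or more in both of those classes.

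Counted as a call, meaning a log2 ratio of at least 1 with at least 10 UMIs over both classes, 8 of the 8 members with enough UMIs were higher in mural than in endothelial-like nuclei in each library, where 19%, 17.4% and 13.6% of all genes tested were. The same 8 of 8 were called higher over adipocyte-like nuclei, beside 19.6%, 22.9% and 17.8% of all genes. The members' median log2 ratio over endothelial-like nuclei was 6.80, 5.58 and 3.59, and that of all genes tested 0.12, 0.15 and -0.07. The members were chosen as smooth muscle genes with earlier results of these data known. Their calls and medians are therefore a description and not independent support. Over fibroblast-like nuclei 2, 4 and 3 of the 8 members were called, beside 9.33%, 9.72% and 15.7% of all genes. With so few fibroblast-like nuclei, 3 counts there would already be 120, 77.3 and 59.97 CPM, so many of these ratios are bounds. The pattern held for part of a wider set of 34 other contractile genes: 17 of 31 tested were higher in untreated mural than endothelial-like nuclei, 20 of 33 in sham and 12 of 27 in denervated, with 1, 0 and 1 lower. Several of the 34, such as Myl9, Des, Synpo2, Casq2 and Nrip2, are also on the smooth muscle list used to name clusters. The 34 were not left out of the clustering either, so these counts are not independent of how the mural class was made.

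Nuclei that held more than 1 contractile gene were a larger share of mural than of endothelial-like or adipocyte-like nuclei. Taking the 7 genes without Rcan2 and Olfr78, UMIs of at least 2 genes were found in 78 untreated mural nuclei (12.3%, interval 9.83 to 15.1), 340 sham (18.7%, 16.9 to 20.5) and 54 denervated (6.73%, 5.10 to 8.69). Endothelial-like nuclei gave 3, 13 and 5 such nuclei (0.0601%, 0.244% and 0.195%), and adipocyte-like nuclei, which were deeper, 14, 6 and 6 (0.295%, 0.136% and 0.103%). Of the 28, 50 and 78 fibroblast-like nuclei 0, 0 and 1 did, with upper limits of 12.3%, 7.11% and 6.94%, so the untreated and denervated intervals overlapped those of the mural nuclei. The shares moved with the nuclei and genes counted: with at least 500 genes per nucleus they were 17.0%, 18.4% and 11.6%, and without Mylk 8.50%, 12.7% and 2.99%. At least 3 of the genes were found in 51, 180 and 16 mural nuclei, and at least 4 in 31, 78 and 5. The most in any nucleus was 6, 6 and 5. Denervated mural nuclei were shallower, so each nucleus was also thinned to 300 UMIs, which left out 17, 14 and 159 mural nuclei. The shares became 6.80%, 9.40% and 4.67%, in the same order, and the untreated interval (4.94 to 9.08) then overlapped both the sham (8.10 to 10.8) and the denervated one (3.17 to 6.59).

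**Figure D2:**
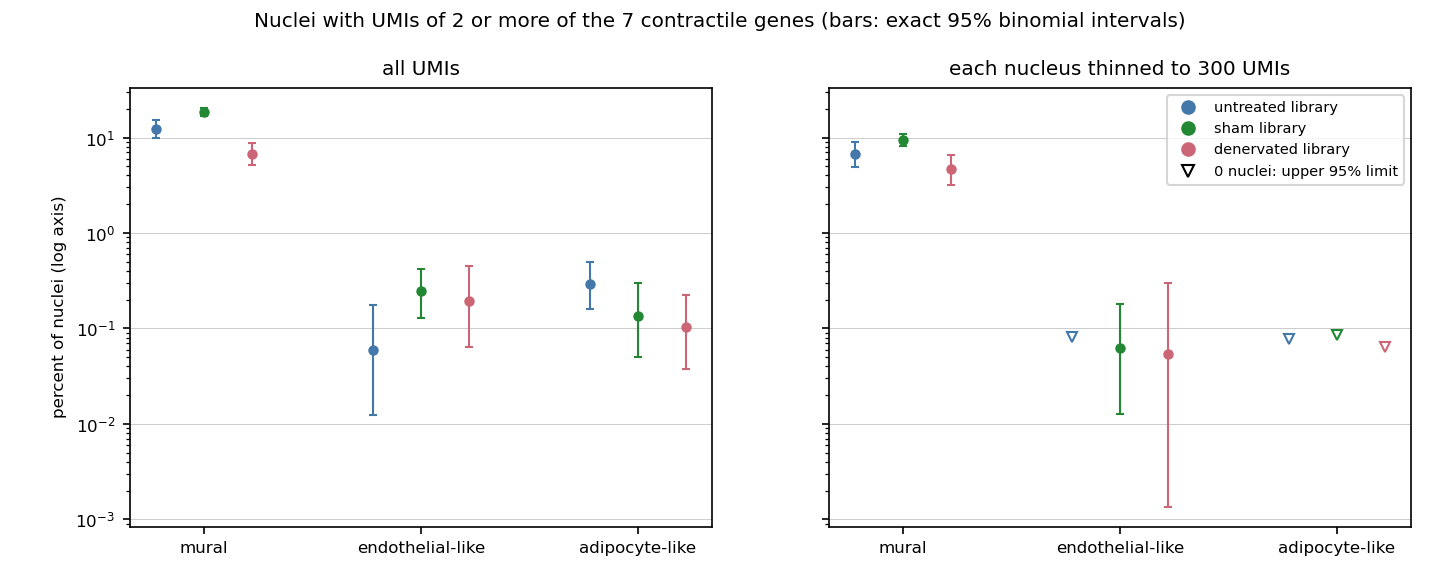
Share of nuclei (y axis, percent) with UMIs of at least 2 of the 7 contractile genes in each class (x axis) and library, from all UMIs and with each nucleus thinned to 300 UMIs; bars are exact 95% binomial intervals. Sham mural nuclei stand highest in both panels, at 18.7% and 9.40%, and endothelial-like and adipocyte-like nuclei stay at or below 0.295%.

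UMIs of the members tended to fall in the same mural nuclei. Of 73 untreated mural nuclei with a Myh11 UMI, 32 also held Acta2 (43.8%, 32.2 to 55.9), against 14 of 562 without Myh11 (2.49%). In sham 112 of 310 (36.1%) stood against 61 of 1512 (4.03%), and in denervated 10 of 47 (21.3%) against 11 of 755 (1.46%). Intervals did not overlap in any of the 3 libraries. Tagln was in 34.2%, 25.8% and 12.8% of nuclei with Myh11 and 2.14%, 2.51% and 1.59% of those without. Myocd was in 26.0%, 22.3% and 8.51% with Myh11 and 0.534%, 3.37% and 1.99% without, and the denervated intervals overlapped. Mylk, the most frequent of these genes, showed the smallest contrast as a ratio of the shares, at 82.2%, 58.4% and 57.4% with Myh11 and 45.4%, 44.7% and 23.7% without.

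The members outside the filament joined them. Of nuclei with an Olfr78 UMI, 18 of 21 untreated (85.7%), 81 of 127 sham (63.8%) and 5 of 9 denervated (55.6%) also held Myh11, against 8.96%, 13.5% and 5.30% of nuclei without Olfr78. Rcan2 gave 13 of 25 (52.0%), 74 of 144 (51.4%) and 8 of 15 (53.3%), against 9.84%, 14.1% and 4.96%. Olfr78 and Rcan2 themselves shared 8 untreated and 48 sham nuclei and 0 denervated nuclei, where Olfr78 was in 9. Over the 28 pairs of the 8 members, the second gene was more frequent in nuclei that held the first in 28 untreated, 28 sham and 26 denervated pairs, and the intervals stood apart both ways in 25, 26 and 13. At 300 UMIs per nucleus these counts were 25, 28 and 20 pairs, with intervals apart in 10, 23 and 7. Thinning lowers the depth and also leaves out the shallowest nuclei, and these were not told apart. Pairs of other genes were not counted, so the pair counts have no background and are not read as particular to the members.

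**Figure D3:**
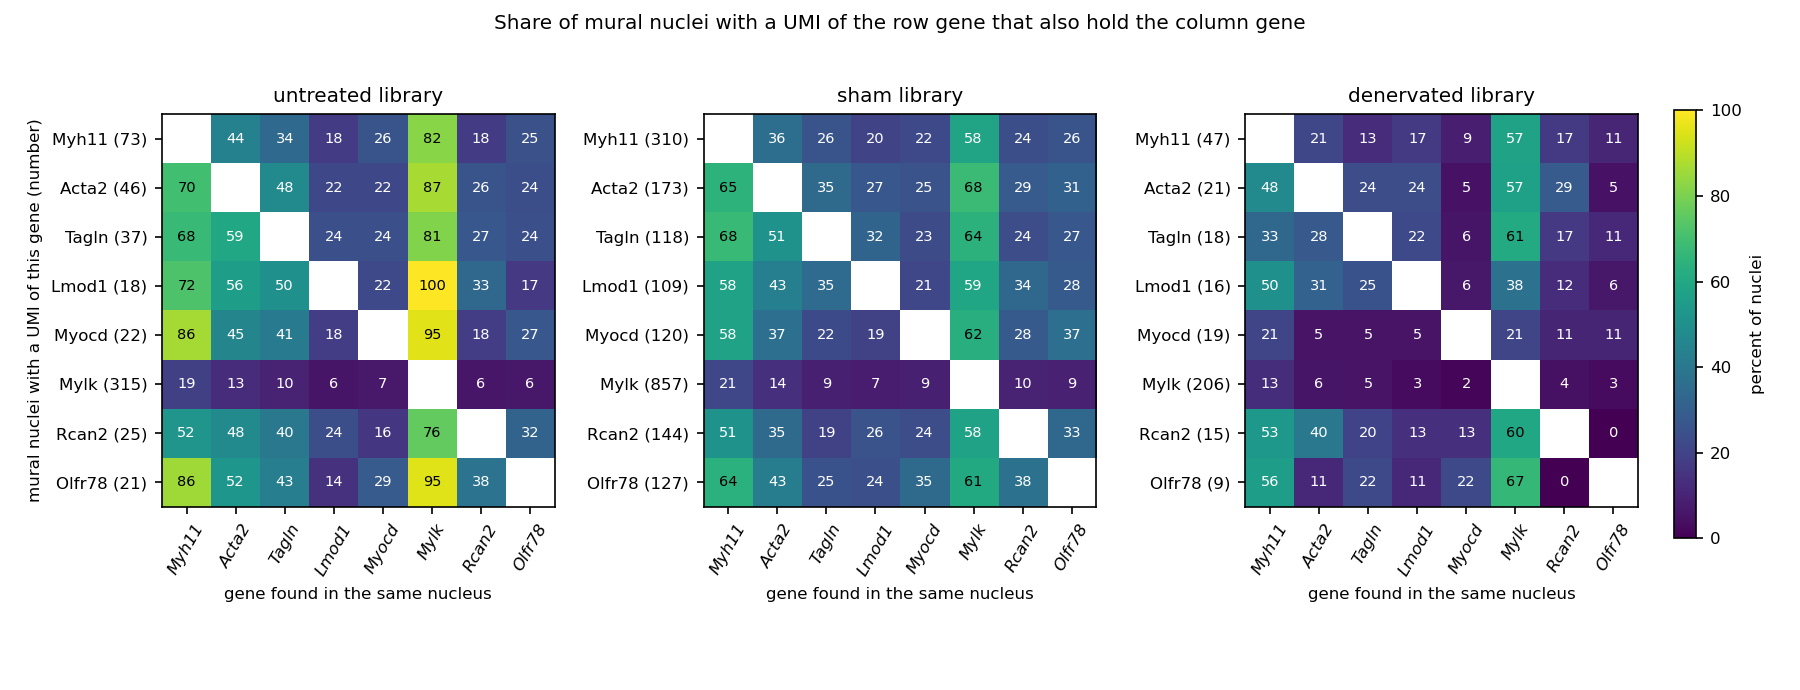
For each library (panel), the number in a cell is the percent of mural nuclei with a UMI of the row gene that also hold the column gene, coloured from 0 to 100. The Mylk column is highest in most rows, and the Myh11 column reaches 85.7% in the Olfr78 row of the untreated library.

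The separate sham cluster held most of the sham mural UMIs of every member except Mylk, of which it held 484 of 1471. Myh11 was at 1929.5 CPM (1767 to 2103) in its 373 smooth muscle-like nuclei and at 112 CPM (93.1 to 133) in the 1449 PC-like nuclei of the same library. Acta2 stood at 995 against 60.5 CPM, Tagln at 577 against 29.4 and Lmod1 at 421 against 32.0. Mylk differed least, at 1803 CPM (1646 to 1971) against 854 CPM (801 to 909), and Olfr78 at 633 against 8.65 CPM differed most among members with 10 UMIs or more. At least 2 contractile genes were found in 242 smooth muscle-like nuclei (64.9%, 59.8 to 69.7) and 98 PC-like nuclei (6.76%, 5.52 to 8.18). The median depth was 654 and 747 UMIs. These values describe clusters of the same cells and carry no test. The cluster was named from a smooth muscle list without the members, and the members were left out of the clustering. Markers of that list summed to 4358 CPM in it and to 1948 CPM in the PC-like cluster. PC markers summed to 9297 CPM in it and to 13394.5 CPM in the PC-like cluster. The rule for naming was decided after clusters were seen.

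When the mural nuclei of each library were clustered again on their own, a smooth muscle-rich group also came out of the untreated library. Its 50 nuclei (7.87% of mural nuclei) had 2139 CPM of Myh11 (1751 to 2587), with a UMI in 80.0% of them, and 1715 CPM of Acta2, 404 of Myocd, 484 of Rcan2 and 585 of Olfr78. The main untreated group of 574 nuclei had 98.3 CPM of Myh11 (72.0 to 131) and 4.27 CPM of Olfr78. In sham the matching group of 300 nuclei had 2217 CPM of Myh11 and 767 of Olfr78. The 802 denervated mural nuclei did not divide. Smaller groups of 11 untreated and 36 sham nuclei were led by adipocyte genes, and 157 sham nuclei by endothelial genes. Endothelial markers summed to 644, 1123 and 926 CPM in untreated, sham and denervated mural nuclei (11, 12 and 11 of 12 markers with a UMI, Egfl7 at 0 in the untreated and denervated libraries). Adipocyte markers summed to 1485, 1385 and 2697 CPM (10 of 10 each), and fibroblast markers to 801, 849 and 651 CPM (7, 9 and 7 of 10). Their part in the members' values was not tested, beyond the values without those groups given at the end.

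Rcan2 and Olfr78 could be read against a split that does not use them: mural nuclei with at least 2 of the 7 contractile genes against those with none. The split gave 78 against 296 nuclei in untreated, 340 against 767 in sham and 54 against 551 in denervated BAT, with median depths of 950.5 against 664.5, 688.5 against 684, and 460.5 against 386 UMIs. Olfr78 had 28 UMIs in the nuclei with contractile genes and 1 in those without in the untreated library, 139 and 9 in sham, and 8 and 1 in denervated. Its log2 ratio of CPM was 6.28 (3.69 to 11.64), 5.08 (4.11 to 6.24) and 6.10 (3.20 to 11.57), the last on 9 UMIs and so below the minimum for a call. Rcan2 had 23 and 8, 138 and 21, and 19 and 2 UMIs, for log2 ratios of 3.0 (1.79 to 4.37), 3.85 (3.18 to 4.59) and 6.35 (4.30 to 9.50). The untreated Rcan2 ratio depended on the nuclei counted, at 5.33 with at least 500 genes per nucleus, 5.72 with nuclei chosen by their own markers and 4.56 at 300 UMIs. The sham Olfr78 ratio was 3.63 at 300 UMIs. Every tested value for these genes was called higher, beside 12.2%, 9.03% and 14.9% of all genes tested in the same split. Both genes were chosen as members with earlier results of these data known, so these calls are a description and not independent support. Within the sham clusters the Rcan2 ratio was 2.65 (1.26 to 4.03) in PC-like nuclei and 0.91 (-0.01 to 2.01) in smooth muscle-like nuclei, and that of Olfr78 3.79 (0.99 to 7.26) on 6 UMIs and 1.51 (0.42 to 2.85).

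Other contractile genes separated on the same split in part. In nuclei with contractile genes, 15 of 28 tested genes of the list of 34 were higher in untreated BAT. In sham 17 of 31 were, and in denervated 11 of 24, beside 12.2%, 9.03% and 14.9% of all genes. Lower were 0, 0 and 1, beside 16.7%, 10.7% and 12.4%. The 1 was Smtn in denervated, at -1.22 on 21 UMIs, with an interval (-6.59 to 1.42) that included 0. Ppp1r14a in sham had an interval below 0 without reaching a call, at -0.86 (-1.43 to -0.32). The median log2 ratio of the list was 1.17, 1.66 and 0.96, where that of all genes tested was -0.11, -0.02 and -0.05. In all 3 libraries 8 of them had at least 10 UMIs over both groups and a log2 ratio of 1 or more. They were the tropomyosins Tpm1 (3.57, 2.87 and 1.898) and Tpm2 (3.70, 2.40 and 2.71), the regulatory light chain Myl9 (2.60, 1.74 and 2.40), the actin crosslinkers Flna (2.61, 1.80 and 2.44) and Actn1 (3.48, 2.22 and 3.10), and Synpo2, Csrp1 and Des. The intervals of Des included 0 in the untreated and denervated libraries. Cald1, which encodes caldesmon, stayed below the call at 0.77, 0.74 and 0.58.

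Among PC markers the split went both ways. Kcnj8 and Abcc9, the subunits of the vascular ATP-sensitive potassium channel, were lower in nuclei with contractile genes, with log2 ratios of -3.41, -2.02 and -2.26 for Kcnj8 and -2.44, -1.85 and -0.86 for Abcc9. The denervated Kcnj8 interval included 0. Notch3, a receptor of mural cells in general, was slightly higher at 0.55, 0.46 and 0.46, and Pdgfrb, the PDGF receptor, was at -0.15, -0.43 and -0.69. Rgs5 changed sign between libraries, at 0.65 (0.49 to 0.81) in untreated, -0.64 (-0.76 to -0.53) in sham and 1.07 (0.75 to 1.39) in denervated BAT. Over the 9 PC markers 0, 0 and 2 were called higher and 3, 2 and 1 lower, beside 12.2%, 9.03% and 14.9% of all genes higher and 16.7%, 10.7% and 12.4% lower.

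The genes outside the members with the largest ratio on this split were picked in the untreated library, among those with at least 20 mural UMIs, and their values there are a description. The 10 were Atp2a3, Cdh6, Nrip2, Timp2, Palld, Lbh, Nexn, Angpt2, Rgs7bp and Cavin3. The last had a log2 ratio of 3.89, and Nrarp was just outside at 3.80. Atp2a3, a calcium pump of the endoplasmic reticulum, had 28 UMIs against 1 in untreated nuclei, 96 against 8 in sham and 9 against 5 in denervated, or 6.28, 4.72 and 3.95 on the log2 scale. Nexn and Palld, which bind actin, had 4.43 and 5.12 in untreated, 4.72 and 3.94 in sham, and 6.27 and 3.87 in denervated nuclei. Cdh6, a cadherin, had 5.94 and 4.65 in untreated and sham, and 3.10 on 4 UMIs in denervated nuclei. In sham, which did not choose them, 10 of 10 were called higher, from 1.28 for Lbh to 6.56 for Rgs7bp, and in denervated the 5 that had 10 UMIs (Atp2a3, Timp2, Palld, Lbh and Nexn) were. Of all genes tested on this split, 9.03% in sham and 14.9% in denervated were called higher.

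**Figure D4:**
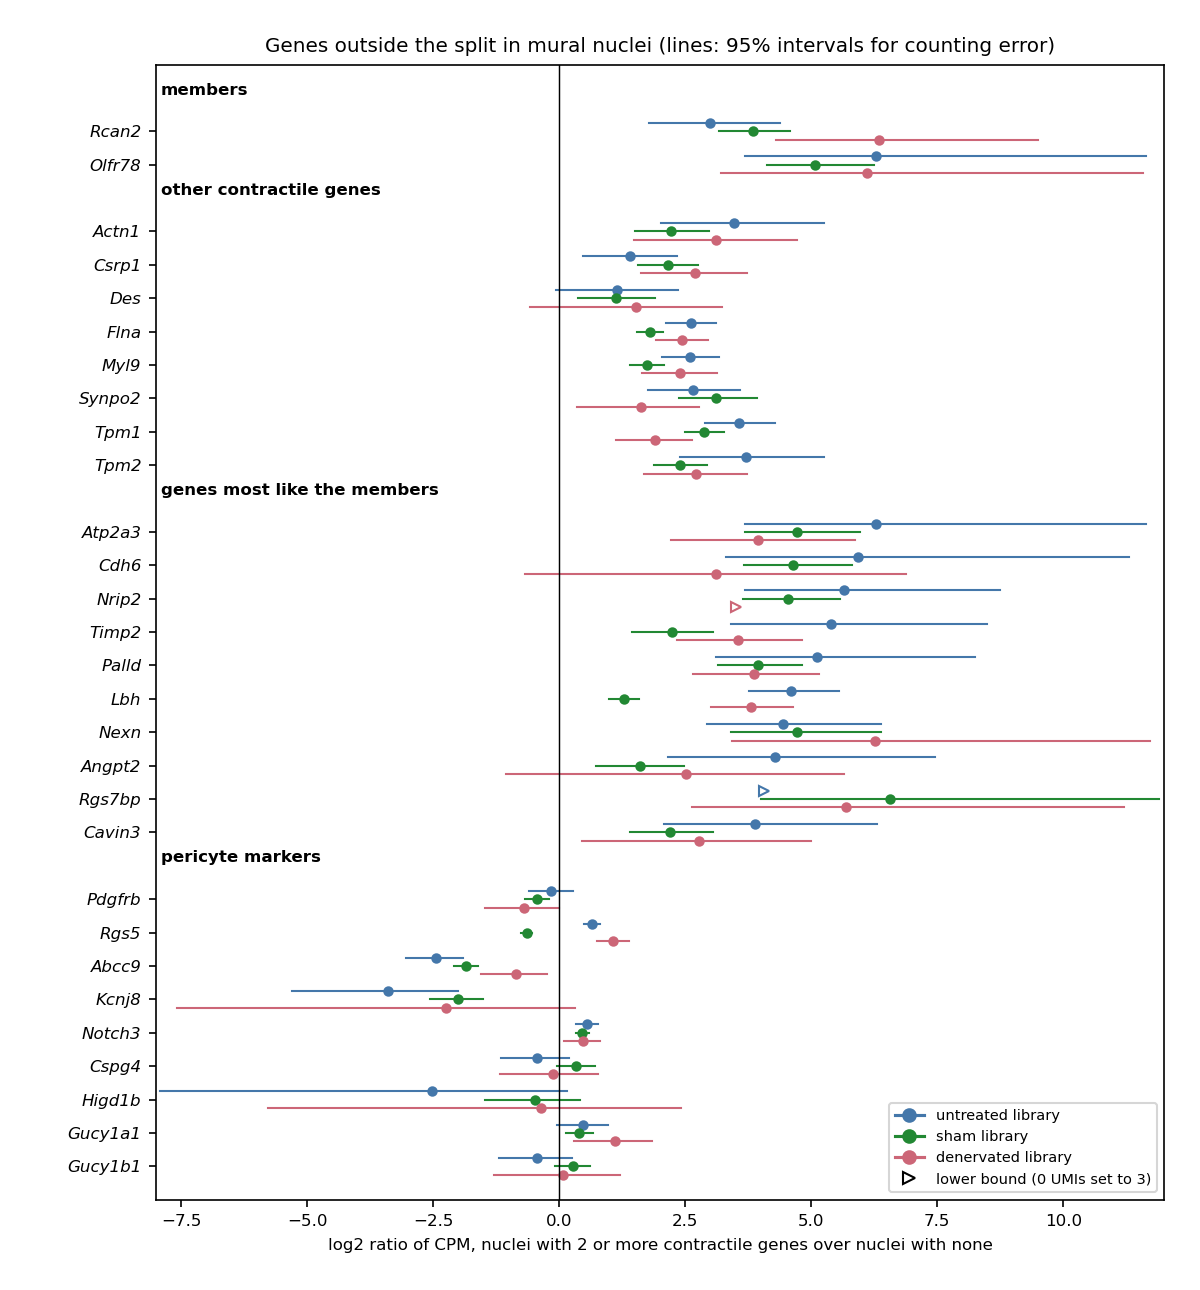
Log2 ratio of CPM (x axis) in mural nuclei with at least 2 contractile genes over nuclei with none, for genes outside the split (y axis), coloured by library; lines are 95% intervals for counting error. Olfr78 and Rcan2 lie to the right of 0 in every library, and Kcnj8 and Abcc9 to the left.

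Between conditions, the members' summed level in mural nuclei was highest in sham and lowest in denervated BAT, though the place of sham depended on the nuclei kept. The 7 contractile genes summed to 1828 CPM (1716 to 1946) in untreated, 2092 CPM (2018 to 2169) in sham and 1364 CPM (1249.8 to 1486) in denervated mural nuclei, and the 3 intervals did not overlap. Relative to untreated the log2 ratio of the sum was 0.19 (0.09 to 0.30) in sham and -0.42 (-0.58 to -0.27) in denervated. With no doublet removal the sham value turned to -0.20, and with at least 500 genes per nucleus it was 0.020. The share of mitochondrial UMIs in the mural nuclei stood in the same order as the sums, at 3.70% in untreated, 5.64% in sham and 2.03% in denervated. With mitochondrial UMIs out of the totals, the sum was 1898 CPM (1782 to 2020) in untreated and 2217 CPM (2138 to 2298) in sham. With the stricter mitochondrial limit given at the end, it was 1732 CPM in untreated and 1992 CPM in sham. Beyond such recomputed values, the part of the mitochondrial share in the difference was not tested. Mylk, which gave most of the sum in untreated nuclei, was not higher in sham. These ratios and the ratio of denervated over sham, -0.62 (-0.75 to -0.48), share libraries and are not independent. Without the sham smooth muscle-like cluster the sham sum was the lowest, and denervated over sham turned to 0.29 (0.15 to 0.44) and sham over untreated to -0.72 (-0.84 to -0.60). The untreated and denervated sums there still included whatever smooth muscle nuclei those libraries had.

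The ratios of single members were unequal. In sham over untreated mural nuclei Myocd (1.13, 0.58 to 1.72), Rcan2 (1.23, 0.72 to 1.78) and Olfr78 (1.14, 0.59 to 1.74) passed a log2 ratio of 1, or 3 of 8 members beside 9.28% of all genes, and 0 were lower, beside 4.61%. Of the others, Myh11 (0.68) and Lmod1 (0.75) had intervals above 0, and Acta2 (0.22), Tagln (0.24) and Mylk (-0.10) had intervals that included 0. In denervated over untreated 1 of 8 members was called lower, Olfr78 at -1.01 (-2.15 to 0.03), beside 9.26% of all genes, and 0 were higher, beside 9.16%. Myh11 (-0.50, -0.92 to -0.10), Tagln (-0.86, -1.60 to -0.15) and Mylk (-0.42, -0.62 to -0.22) had intervals below 0 without reaching a call, and Acta2 (-0.41, -0.89 to 0.06), Lmod1 (-0.14), Myocd (-0.05) and Rcan2 (-0.16) had intervals that included 0. In denervated over sham 5 of 8 were called lower, beside 13.9% of all genes: Myh11 (-1.19), Tagln (-1.09), Myocd (-1.18), Rcan2 (-1.39) and Olfr78 (-2.15). None of the 8 was called higher, beside 10.3%.

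The order of the conditions depended on which mural nuclei were counted. The smooth muscle-like cluster was 373 of 1822 sham mural nuclei, and without it the contractile sum in sham was 1112 CPM (1052 to 1175), below both other libraries. In PC-like clusters alone, sham over untreated gave 5 of 8 members lower (Myh11 -1.34, Acta2 -1.75, Tagln -1.94, Myocd -1.29 and Olfr78 -2.73), beside 5.52% of all genes, and 0 higher, beside 8.81%. Denervated over sham then gave 4 of 8 higher (Acta2 1.34, Tagln 1.08, Myocd 1.24 and Olfr78 1.72), beside 10.3% of all genes, and 0 lower, beside 14.1%. PC markers, at 7289 CPM, were lowest and adipocyte markers, at 2697 CPM, highest in the denervated mural nuclei, and their part in the members' values was not tested. The untreated and denervated PC-like clusters still held whatever smooth muscle nuclei those libraries had, so these are not like sets of nuclei. When the main groups of the second clustering were set side by side instead (574 untreated and 1329 sham nuclei), Myh11 was at 98.3 CPM (72.0 to 131) in untreated and 163 CPM (139 to 189.7) in sham. There Acta2 was at 53.4 and 48.4 CPM, Tagln at 40.6 and 29.6, Myocd at 25.6 and 34.5, and Olfr78 at 4.27 and 11.8, each with intervals that overlapped. The contractile sum was 1205 CPM (1108 to 1309) and 1245 CPM (1178 to 1316), with intervals that overlapped. In the smooth muscle-rich groups it was 8496 CPM (7703 to 9347) in untreated and 7541 CPM (7170 to 7927) in sham, again with intervals that overlapped. Those groups were 7.87% of untreated and 16.5% of sham mural nuclei. The parts of the mix of nuclei and of the level per nucleus in sham against untreated were not tested. Denervated mural nuclei did not divide, so there a different mix of PC and smooth muscle nuclei and a different level per nucleus cannot be told apart. The denervated over untreated values are those of the whole mural class, since neither library had another mural cluster (9.26% of all genes lower and 9.16% higher). Of the other contractile genes, 4 of 33 tested were called higher and 1 lower in sham over untreated mural nuclei, beside 9.28% and 4.61% of all genes. In denervated over untreated 0 of 30 were higher and 1 lower, beside 9.16% and 9.26%, and in denervated over sham 1 of 33 was higher and 5 lower, beside 10.3% and 13.9%.

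**Figure D5:**
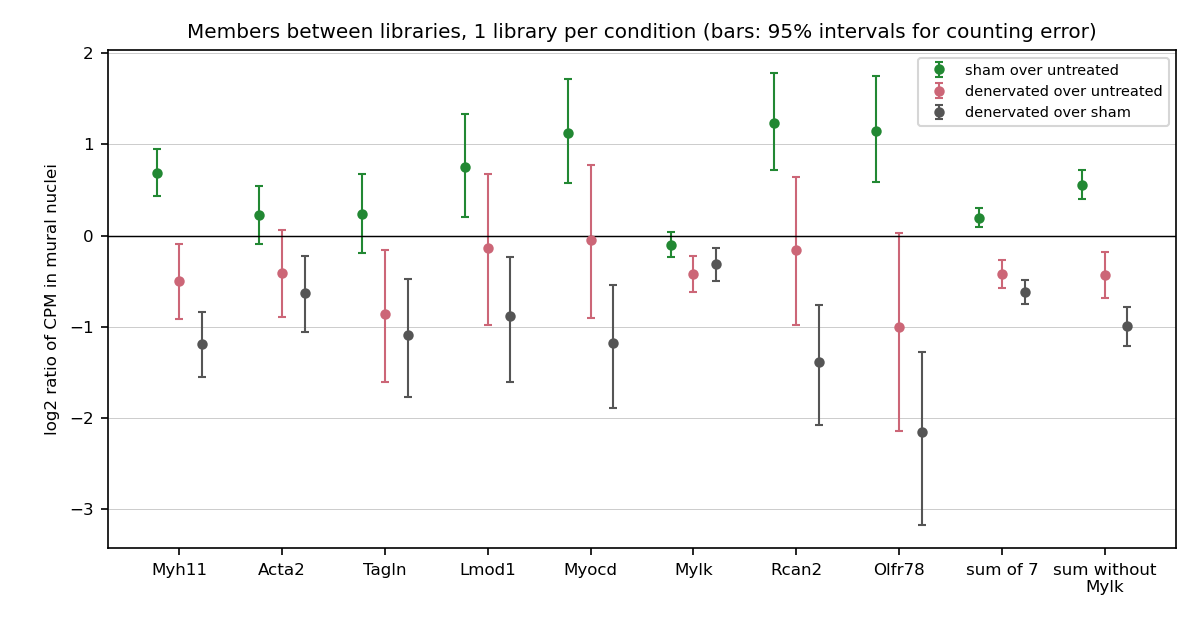
Log2 ratio of CPM in mural nuclei (y axis) for each member (x axis) and each comparison of libraries, 1 library per condition; bars are 95% intervals for counting error. Denervated over sham is at or below -0.32 for all 8 members plotted, from -0.32 for Mylk to -2.15 for Olfr78.

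Outside the mural class some of the members' few UMIs were not spread in mural proportions. Tagln made up 15.6% of the UMIs of the 6 contractile genes without Mylk in untreated mural nuclei and 55.2% (35.7 to 73.6) of those in endothelial-like nuclei. The shares were 12.5% and 38.7% (27.6 to 50.6) in sham, with intervals apart as in untreated, and 11.7% and 22.0% in denervated BAT, where the intervals overlapped. In denervated endothelial-like nuclei each other gene's interval overlapped its mural one as well. In adipocyte-like nuclei the Tagln share was 4.82% (1.33 to 11.9) in untreated BAT, below the mural share. It was 27.8% (19.2 to 37.9) in sham, above the mural share, and 14.8% (8.71 to 22.9) in denervated BAT. Of the 16 Tagln UMIs in untreated endothelial-like nuclei, 13 were in 6 nuclei of a cluster of 47 led by genes such as Plvap, Vwf and Selp, at 279 CPM (149 to 477), and 6 of the 13 were in 1 nucleus. A sham cluster of 150 nuclei led by the same kind of genes held 11 Tagln UMIs in 8 nuclei, at 99.4 CPM (49.6 to 178). Mylk was at 387 and 362 CPM in those clusters, above its level of 117 CPM over all endothelial-like nuclei of either library.

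Acta2 showed a like unevenness among adipocyte-like nuclei. In denervated BAT 27 of its 38 adipocyte-like UMIs were in 12 nuclei of a cluster of 881 led by Ptx3, Slc7a10 and Cxcl1, at 33.9 CPM (22.3 to 49.3) with 7 in 1 nucleus, against 11 UMIs at 2.23 CPM (1.11 to 3.99) in the cluster of 4915. In sham a cluster of 1669 nuclei that Slc7a10 also helped to define had 22 UMIs at 10.5 CPM (6.55 to 15.8), against 7 UMIs at 1.78 CPM in the cluster of 2732. The adipocyte-like nuclei with Acta2 numbered 16, 22 and 22, of which 0, 1 and 0 also held Myh11. In mural nuclei with Acta2, 32 of 46, 112 of 173 and 10 of 21 did. Over all adipocyte-like nuclei Acta2 had 16, 29 and 38 UMIs (1.86, 4.80 and 6.57 CPM) and Tagln 4, 27 and 16 UMIs (0.464, 4.47 and 2.77 CPM) in the untreated, sham and denervated libraries. The mural share of nuclei was 6.05%, 15.4% and 8.36%, ambient RNA was not removed, and their part in these few UMIs was not tested. Mylk in adipocyte-like nuclei was lower in sham (-1.05, -1.28 to -0.82) and slightly higher in denervated than in untreated BAT (0.22, 0.04 to 0.39).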

How the data were processed

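Single-nucleus libraries were analysed from the deposited tables of UMI counts per gene and barcode, which per the file headers of the untreated and denervated tables the authors made with version 1.9 of the BD WTA Rhapsody pipeline on GRCm38, with UMIs corrected for sequencing error. The sham table has no header. The submitters' processing notes name Seurat 4.0.6 and GRCh38. The authors' removal of debris and ambient RNA was not repeated. The deposited counts are molecules, not normalised.

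Here, barcodes with fewer than 200 genes or more than 50% of mitochondrial UMIs were dropped. Doublets (1292, 2218 and 867 barcodes of the untreated, sham and denervated libraries) were taken out by exclusive markers: at least 3 UMIs of each of 2 lists, the smaller at least 25% of the larger. Each library was clustered separately on log2 counts per 10000 plus 1, over 2000 variable genes without the members and mitochondrial genes (30 principal components, 20 neighbours, Louvain resolution 0.5, seed 1), and clusters were named from marker lists without members. A cluster that met several lists took the highest-scoring list, unless another list had more of the cluster's leading genes. This rule was decided after clusters were seen. Mural nuclei are PC-like and smooth muscle-like clusters together. A call needs a log2 ratio of 1 or more in size and at least 10 UMIs over both groups, with a group at 0 set to 3 counts. CPM intervals are exact Poisson, shares Clopper-Pearson and ratios exact conditional binomial. There was 1 library per condition, so no replicate check and no p-value. Named genes were the 9 members, PC markers, contractile genes past the call in every library, and the 10 genes most like the members. Members and lists were chosen with earlier results of these data known. Ratios were tested on simulated data. Matplotlib 3.10.9, python-igraph 0.11.9, pandas 2.3.3, numpy 2.4.6, scikit-learn 1.9.0 and scipy 1.17.1 were run under Python 3.11.15. Cald1, Smtn, Ppp1r14a, Pcsk7, Gm48529, Nrarp and the clusters outside the mural class were named after their values were seen.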

Additional observations from a re-analysis of the deposited data

Results flagged for a closer look

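In 5 instances a member was lower in denervated mural nuclei and higher in another class under the same comparison, with an interval on either side of 0. These differences between classes were not tested, since each condition has 1 library. The 5 were picked from all members, comparisons and classes, and no such count was made over all genes. On the log2 scale, Myh11 in denervated over untreated BAT was -0.50 in mural and 3.13 in endothelial-like nuclei, where the untreated value rests on 3 UMIs. Tagln in the same comparison was -0.86 in mural and 2.58 in adipocyte-like nuclei, on 4 untreated UMIs, and Mylk was -0.42 and 0.22. In denervated over sham BAT, Myocd was -1.18 in mural and 1.20 in adipocyte-like nuclei, and Mylk was -0.32 and 1.26. Myh11 in endothelial-like nuclei was also higher in sham over untreated BAT, at 2.90 (1.16 to 5.29), and was 0.24 (-1.01 to 1.39) in denervated over sham.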

How the results depend on the processing

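Over 185 recomputed values of 18 results, 137 stayed within the counting interval, 45 moved and 3 changed sign. The 137 include values that a setting could not change, such as those of a library without the cluster left out, so they are no measure of stability. No paired analysis was possible because each condition has 1 library. Values are given for untreated (U), sham (S) and denervated (D) mural nuclei. Sum is the CPM of the 7 contractile genes, ratio their log2 ratio over endothelial-like nuclei, and share the percent of nuclei with at least 2 of them. Without the smooth muscle-like cluster, an alternative chosen after seeing the data, the sum in S was 1112, and the log2 ratio of the sum changed sign to -0.72 for S over U and 0.29 for D over S. With no doublet removal S over U changed sign to -0.20, D over S was -0.30, the sum in S 1548, the ratio 3.38 in S and 2.76 in D, and the share 16.0 in S. With at least 500 genes per nucleus the sum was 1997 in U and 1178 in D, the ratio 3.67 in S and 2.77 in D, the share 17.0 in U and 11.6 in D, the Rcan2 split 5.33 in U, and the log2 ratios 0.020 for S over U, -0.76 for D over U and -0.78 for D over S. With at most 10% mitochondrial UMIs the sum in S was 1992 and its ratio 3.74. With nuclei chosen each by its own markers the sum was 2008 in S and 1552 in D, the ratio 3.71 in S, the Rcan2 split 5.72 in U, D over U -0.26 and D over S -0.37. With mitochondrial UMIs out of the totals the sum in S was 2217. Without Mylk the sums were 720.2, 1059.8 and 534, the ratios 6.45, 5.55 and 4.12, the shares 8.50, 12.7 and 2.99, S over U 0.56 and D over S -0.99. Thinned to 300 UMIs the shares were 6.80, 9.40 and 4.67, the Rcan2 split 4.56 in U and the Olfr78 split 3.63 in S, and at 500 UMIs the share in S was 14.1. Without sub-clusters led by endothelial or adipocyte genes, also chosen after seeing the data, the sum in S was 2304 and D over S -0.76. With S in place of U as the reference, D was at -0.62. The Rcan2 split in D at 300 UMIs and the Olfr78 split in D at 500 genes gave no value. Depth limits Cnn1, the fibroblast-like class, and Olfr78 in denervated nuclei (11 UMIs).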
